A study of Homo sapiens with 5 samples.

Results

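Contacts among the human acrocentric chromosomes 13, 14, 15, 21 and 22 were measured by in situ Hi-C in RMG1 cells, an established line from an ovarian clear cell carcinoma. Hi-C joins and sequences DNA ends that lie close to each other in fixed nuclei, so read pairs count contacts between places in the genome (here hg19). A member was any pair of 1 Mb bins that lay on 2 different chromosomes of these 5. After bins with few contacts were left out, 41501 such bin pairs were used, of 3638266 bin pairs between different chromosomes (trans pairs) in all. They form 10 chromosome pairs. Each acrocentric chromosome was further split into its first 10 measured bins, called near because they lie next to the short arm, and the remaining bins, called rest. This gave 883 near-near, 10615 near-rest and 30003 rest-rest bin pairs.

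An acrocentric chromosome has a very short arm, and that arm carries a nucleolar organizer region, an array of ribosomal RNA genes. Active arrays from several chromosomes gather around shared nucleoli, which brings the starts of their long arms near each other, while chromatin around nucleoli is mostly inactive. The short arms and the arrays themselves are repeats that short reads cannot place, so contacts next to them are read from the first unique sequence of the long arm.

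The study compared 3 groups. The control was 1 library of RMG1 cells with a control hairpin, wild type for both ARID1A and CAPH2. ARID1A_KO was 2 libraries of RMG1 cells with ARID1A knocked out by CRISPR and CAPH2 wild type, and CAPH2_KD was 2 libraries of RMG1 cells with a hairpin against CAPH2 and ARID1A wild type. ARID1A belongs to BAF, a complex that remodels nucleosomes. CAPH2, also written NCAPH2, is part of the condensin II ring, which compacts chromosomes and keeps them apart. The labels do not say whether the knockout libraries came from 1 clone, from several or from separate cultures, so the p-values below measure only the spread between these libraries. The control hairpin is not a CRISPR control, so the knockout and the way it was made cannot be told apart from each other in that comparison.

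Depth differed between libraries. The recovered contact totals, in M contacts, were 47.9 in the control, 31.4 and 32.5 in ARID1A_KO, and 55.7 and 85.0 in CAPH2_KD. Contacts among acrocentric chromosomes numbered 193461 in the control, 92518 and 119040 in ARID1A_KO, and 235544 and 356606 in CAPH2_KD. The near-near blocks are thin by comparison, with between 148 and 1029 contacts for a chromosome pair in a library. Intervals and spreads on such counts cover counting error and library differences only.

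ARID1A_KO replicate 1 stood apart in one respect that bears on these chromosomes. Trans bin pairs over 20-fold above expectation formed 41 clusters, of which 40 were over 20-fold in the control. In ARID1A_KO replicate 1, 4 of those 40 were under 2-fold, against 1 in ARID1A_KO replicate 2 and 0 in both CAPH2_KD libraries. The only such cluster between acrocentric chromosomes, a join of 13q and 14q described below, is among the 4. The main results that rest on it are also given with the bin pairs around it left out.

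Acrocentric chromosomes took a larger part of trans contacts than their totals predict. They held 1.65% of trans signal with each other in the control, 1.39% and 1.59% in ARID1A_KO and 1.66% in each CAPH2_KD library, where the product of totals gave 1.14% in every library. With the bin pairs around the join left out, the share was 1.54% in the control, 1.36% and 1.48% in ARID1A_KO, and 1.55% and 1.56% in CAPH2_KD, and the expected share was between 1.11% and 1.12%. The level of a chromosome pair is given as log2 of observed over expected signal, with the expectation from the product of the bins' totals. Those totals include contacts within chromosomes, so all 10 acrocentric pairs, like 100% of all chromosome pairs, were called below 0 by limma, and each level is read against the median of all pairs instead. That median was -1.68 in the control, and the median of the 10 acrocentric pairs was -1.26. The gap was much smaller with only trans totals in the expectation. Over the 3 groups, the median level was -1.26 for the acrocentric pairs and -1.67 for all, but 0.11 and 0.04 with trans totals.

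Chromosomes 21 and 22, the G group of small acrocentrics, had the highest mean level of the 10 pairs, and the highest in every library but ARID1A_KO replicate 2, where 13-14 was above them. Their level was -0.59 in the control, -0.70 and -0.97 in ARID1A_KO, and -0.45 and -0.46 in CAPH2_KD. It ranked 5 among all chromosome pairs by the mean over libraries. The 6 pairs of a D-group chromosome (13, 14 or 15) with 21 or 22 were less uniform. The pair 15-22 was highest of them, at -1.13 in the control, -1.25 and -1.16 in ARID1A_KO, and -0.996 and -0.995 in CAPH2_KD, rank 23. The pair 13-22 was lowest, at -1.74 in the control, -1.81 and -1.64 in ARID1A_KO, and -1.65 in each CAPH2_KD library, rank 140. Between them, 14-22, 14-21, 15-21 and 13-21 ranked 36, 41, 42 and 88. The pair 21-22 was above all 6 in every library, although its ARID1A_KO libraries had the wider spread (SD 0.19, n = 2, against 0.12 for 13-22).

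Among the D group, 13-14 was the highest pair in 4 libraries and not in the fifth. Its level was -0.70 in the control, -1.59 and -0.86 in ARID1A_KO, and -0.68 in each CAPH2_KD library. The pair 14-15 had -1.24 in the control, -1.43 in each ARID1A_KO library, and -1.09 in each CAPH2_KD library. The pair 13-15 had -1.34 in the control, -1.52 and -1.48 in ARID1A_KO, and -1.25 and -1.24 in CAPH2_KD. ARID1A_KO replicate 1 thus placed 13-14 below both 14-15 and 13-15, while the other 4 libraries placed it far above them.

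**Figure D1:**
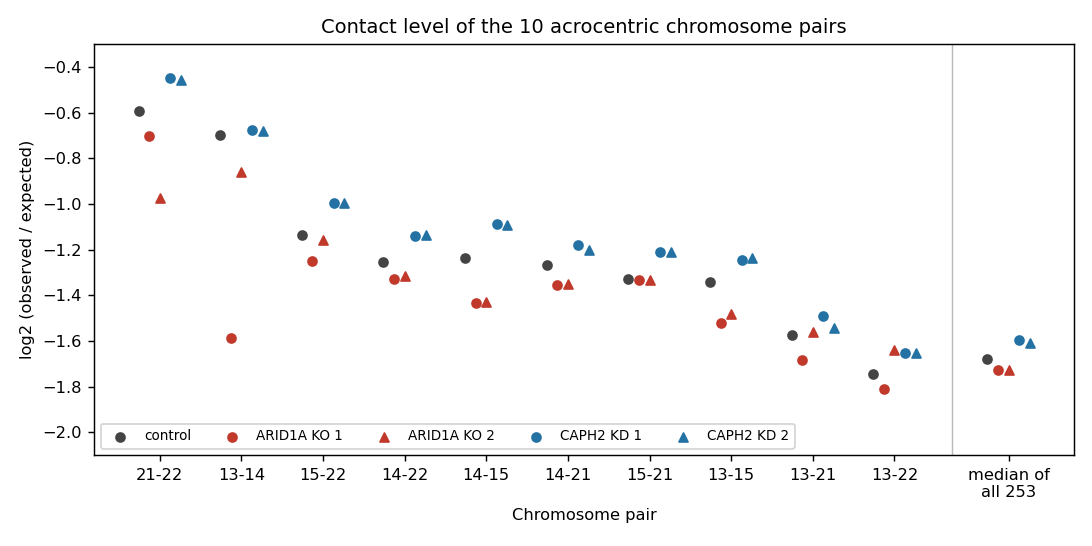
Level of each acrocentric chromosome pair, as log2 of observed over expected signal (vertical axis), in each of the 5 libraries (grey control, red ARID1A_KO, blue CAPH2_KD; circles replicate 1, triangles replicate 2). Pairs are in order of their mean, with the median of all chromosome pairs at the right; 21-22 is highest, and ARID1A_KO replicate 1 lies at -1.59 for 13-14 where the other libraries lie between -0.68 and -0.86.

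The order changed in part when only trans totals were used for the expectation, a scale on which a typical pair sits near 0. On that scale 21-22 was at 0.71 in the control, 0.56 and 0.32 in ARID1A_KO, and 0.77 and 0.78 in CAPH2_KD. The pair 13-22 was at -0.45 in the control, -0.36 and -0.31 in ARID1A_KO, and -0.44 and -0.42 in CAPH2_KD, the lowest mean of all chromosome pairs. The pair 13-21 was also below 0 in all 5 libraries, 14-22 was above 0 in 4, and the other 7 were above 0 in all 5. Of all chromosome pairs, 133 were above 0 in all 5 libraries. The 10 pairs were thus spread over the whole range: 21-22 and, outside ARID1A_KO replicate 1, 13-14 stood high, and the pairs of 13 with the G group stood low.

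The highest signal of 13-14 lay at a single place. The bin pair at chr13:110000001-111000000 and chr14:74000001-75000000 (hg19, in the distal part of both long arms) was 32.2-fold over expectation in the control, 0.646-fold and 27.0-fold in ARID1A_KO, and 30.3-fold and 29.6-fold in CAPH2_KD. It held 467 contacts in the control, 5 and 337.5 in ARID1A_KO, and 486 and 735 in CAPH2_KD; the value that is not whole comes from recovering contacts from balanced signal. The next bin of chromosome 14 toward the centromere, chr14:73000001-74000000, was 26.0-fold with the same bin of chromosome 13 in the control and 0.258-fold in ARID1A_KO replicate 1. Together these 2 bin pairs had 791 contacts in the control (exact 95% Poisson interval 736.8 to 848.1) and 7 in ARID1A_KO replicate 1 (2.81 to 14.4). ARID1A_KO replicate 2 had 564.5, and the CAPH2_KD libraries had 775 and 1203. The interval of ARID1A_KO replicate 1 lay far below those of the other 4 libraries.

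Outside ARID1A_KO replicate 1, the signal around that point was highest in 1 of 4 quadrants, which was the lowest in that library. Bins of chromosome 13 up to and including the join, with bins of chromosome 14 from the join to its end, had an observed over expected ratio of 1.02 in the control, 0.319 and 0.917 in ARID1A_KO, and 0.995 and 0.980 in CAPH2_KD. The same bins of chromosome 13 with chromosome 14 before the join had 0.380 in the control, 0.335 and 0.338 in ARID1A_KO, and 0.412 and 0.413 in CAPH2_KD. Chromosome 13 after the join had 0.376 in the control and 0.346 in ARID1A_KO replicate 1 with chromosome 14 before it. With chromosome 14 from the join on, the 132 bin pairs of the distal ends had 0.702 in the control, 0.572 and 0.605 in ARID1A_KO, and 0.676 and 0.731 in CAPH2_KD, so that quadrant was raised in all 5 libraries. In the quadrant before the join on both chromosomes, which holds all near-near bin pairs of 13-14, the ARID1A_KO replicates were alike. The excess reached far: bin pairs 21 to 40 Mb from the join were at 0.709 in the control and at 0.310 in ARID1A_KO replicate 1. Leaving out all 1025 bin pairs within 20 Mb of the join on both sides, a choice made after seeing the data, moved the 13-14 level to -0.93 in the control, -1.59 and -1.09 in ARID1A_KO, and -0.88 and -0.89 in CAPH2_KD.

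**Figure D2:**
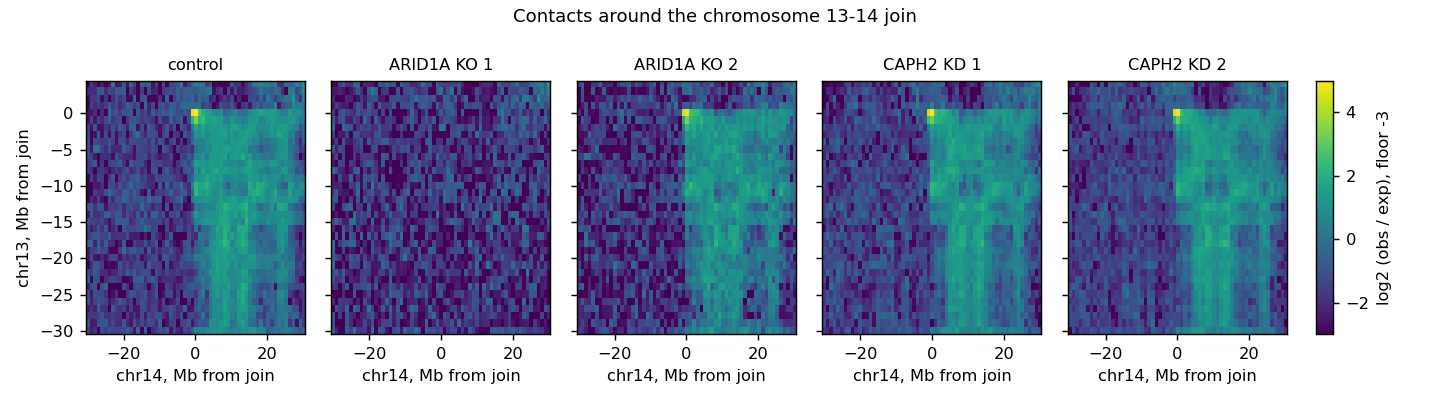
Contacts between chromosomes 13 (vertical axis, Mb from the join) and 14 (horizontal axis, Mb from the join) in 1 Mb bins, 1 panel per library, coloured by log2 of observed over expected. A bright corner and a bright quadrant beside it appear in 4 libraries, and neither is seen in ARID1A_KO replicate 1, where the corner holds 7 contacts.

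Outside that join the strongest contacts lay at the ends of the long arms rather than next to the short arms. The 4 acrocentric bin pairs with the highest mean ratio were all at the join. The fifth was chr21:47000001-48000000 with chr22:50000001-51000000, the last bins used on both chromosomes. It was 3.68-fold over expectation in the control from 20 contacts, 4.36-fold and 3.18-fold in ARID1A_KO from 24 and 16, and 5.50-fold and 4.44-fold in CAPH2_KD from 32 and 40. For 6 of the 10 chromosome pairs, the strongest bin pair joined the last 2 used bins of both chromosomes. For 1 pair, 13-22, it joined near bins: chr13:20000001-21000000 with chr22:17000001-18000000 was 2.03-fold in the control, 1.47-fold and 1.32-fold in ARID1A_KO, and 2.10-fold and 2.09-fold in CAPH2_KD, from 5 to 16 contacts. Each is a maximum over many bin pairs with few contacts, and no test was made of them.

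Next to the short arms, contacts were denser than between the rest of the long arms. Summed over the 10 pairs, the near-near level was -0.75 in the control, -0.84 and -0.96 in ARID1A_KO, and -0.50 and -0.53 in CAPH2_KD. The rest-rest level was -1.13 in the control, -1.50 and -1.23 in ARID1A_KO, and -1.03 in each CAPH2_KD library. The near-rest level was the lowest of the 3 classes in 4 libraries, at -1.32 in the control, -1.44 and -1.45 in ARID1A_KO, and -1.26 and -1.27 in CAPH2_KD. In ARID1A_KO replicate 1, which does not show the 13-14 join, rest-rest was the lowest class instead. With the wide join left out, the rest-rest level was -1.22 in the control, -1.49 and -1.32 in ARID1A_KO, and -1.11 in each CAPH2_KD library, still below near-near in all 5.

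Summed over the other chromosomes, near-near was also above rest-rest. On the other chromosomes, near means the first 10 measured bins after the longest unmeasured run, at the start of the long arm. Near-near levels between other chromosomes were -1.51 in the control, -1.60 and -1.40 in ARID1A_KO, and -1.22 and -1.24 in CAPH2_KD, against rest-rest levels of -1.74, -1.78, -1.80, -1.65 and -1.66. Near-near levels of an acrocentric with another chromosome lay between, at -1.12, -1.22, -1.13, -0.86 and -0.87 in the same order of libraries. Small gene-rich chromosomes (16, 17, 19, 20 and 22) had near-near levels of -0.69, -0.77, -0.76, -0.42 and -0.46, above those of the acrocentrics in each library, and their rest-rest levels were -0.80, -0.86, -0.92, -0.66 and -0.67. The excess was not general: between the large chromosomes 1 to 5, near-near (-1.75) was below rest-rest (-1.67) in ARID1A_KO replicate 1. Of the 10 small gene-rich pairs, 4 had near-near above rest-rest and 4 below by limma. With recovered contacts the acrocentrics were above the small gene-rich chromosomes in each library. Acrocentric near-near was then -0.51 in the control, -0.62 and -0.70 in ARID1A_KO, and -0.26 and -0.28 in CAPH2_KD. Small gene-rich near-near was -0.73, -1.02, -0.96, -0.44 and -0.49. With balanced signal, the median over pairs was higher for acrocentrics in every library but ARID1A_KO replicate 2 (-0.98 against -0.84). Near-near contact among acrocentrics was thus higher than between most chromosomes, and its place beside the small gene-rich ones depended on the measure.

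**Figure D3:**
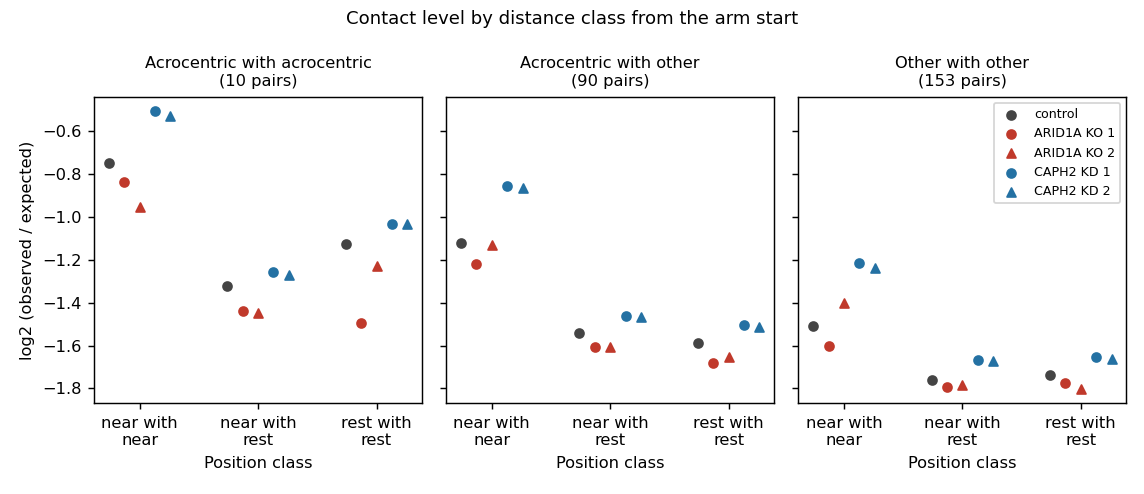
Summed level (log2 of observed over expected) of near-near, near-rest and rest-rest bin pairs for pairs within the acrocentrics, between an acrocentric and another chromosome, and between other chromosomes; points are the 5 libraries. In all 3 panels near-near is the highest class in every library, and the acrocentric near-near points lie between -0.50 and -0.96.

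Compartments, the division of chromatin into an active and an inactive class, were matched next, and near-near stayed the highest of the 3 position classes. The side of the control's compartment axis with the higher share of trans contacts was taken as active, without gene or activity data. The axis was set to the same mean and spread within each chromosome. Sides and classes are thus relative to a bin's own chromosome, and differences between whole chromosomes were not matched. The near bins are mixed: all 9 on chromosome 13 were on that side, against 4 of 10 on chromosome 14, 3 of 9 on 15, 2 of 9 on 21 and 5 of 10 on 22. With an expectation from non-acrocentric trans bin pairs in the same classes (5 per bin), near-near was 1.00 above expectation on the log2 scale in the control, 0.94 and 0.85 in ARID1A_KO, and 1.16 and 1.15 in CAPH2_KD. The mean over libraries, 1.02, was 0.59 when trans totals were used for the expectation. Rest-rest was 0.61 above in the control, 0.28 and 0.57 in ARID1A_KO, and 0.62 and 0.63 in CAPH2_KD. Near-rest was lowest apart from ARID1A_KO replicate 1, between 0.33 and 0.41 in all 5 libraries.

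Chromosome pairs differed widely in this near-near excess, given here as the near-near minus the rest-rest level. It was largest for 13-22, at 1.39 in the control, 1.22 and 1.05 in ARID1A_KO, and 1.59 and 1.44 in CAPH2_KD, and no other chromosome pair had a higher mean. Its near-near level of -0.49 in the control, -0.72 and -0.67 in ARID1A_KO, and -0.22 and -0.35 in CAPH2_KD ranked 4 among all pairs, while its rest-rest level ranked 194. On this scale, with all totals, 13-22 as a whole ranked 140. It was the lowest pair only by trans totals, for which no near-near rank is given here. The pair 14-21 had the next highest acrocentric near-near level, rank 6, at -0.68 in the control, -0.63 and -0.72 in ARID1A_KO, and -0.27 and -0.35 in CAPH2_KD. The pair 21-22 was the opposite case: its excess was -0.57 in the control, -0.42 and -0.41 in ARID1A_KO, and -0.56 and -0.47 in CAPH2_KD, and its near-near level ranked 57 while its rest-rest level ranked 3.

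A test of the excess against 0 used limma over all chromosome pairs, with Benjamini-Hochberg adjustment at 0.05 and the mean of the 3 group means. Of the 10 acrocentric pairs, 8 had near-near above rest-rest, against 67.2% of all pairs called in that direction and 76.7% called in either. The median excess was 0.57 for the acrocentric pairs and 0.33 for all. The 8 ranged from 15-22 (0.35, SE 0.049, adjusted p = 0.00148) to 13-22 (1.35, SE 0.058, adjusted p = 0.000113). The pair 21-22 was called the other way (-0.50, SE 0.050, adjusted p = 0.000494), as were 9.49% of all pairs. The pair 13-14 was not called (0.08, SE 0.16, adjusted p = 0.675). It was 0.91 in ARID1A_KO replicate 1 and between -0.18 and 0.10 in the other 4 libraries. With the wide join left out it was 0.28 (SE 0.13, adjusted p = 0.0935), at 0.92 in ARID1A_KO replicate 1 and between 0.07 and 0.33 in the others. The median excess was 0.54 for the acrocentric pairs and 0.37 for all without ARID1A_KO replicate 1, and 0.59 and 0.27 without replicate 2.

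**Figure D4:**
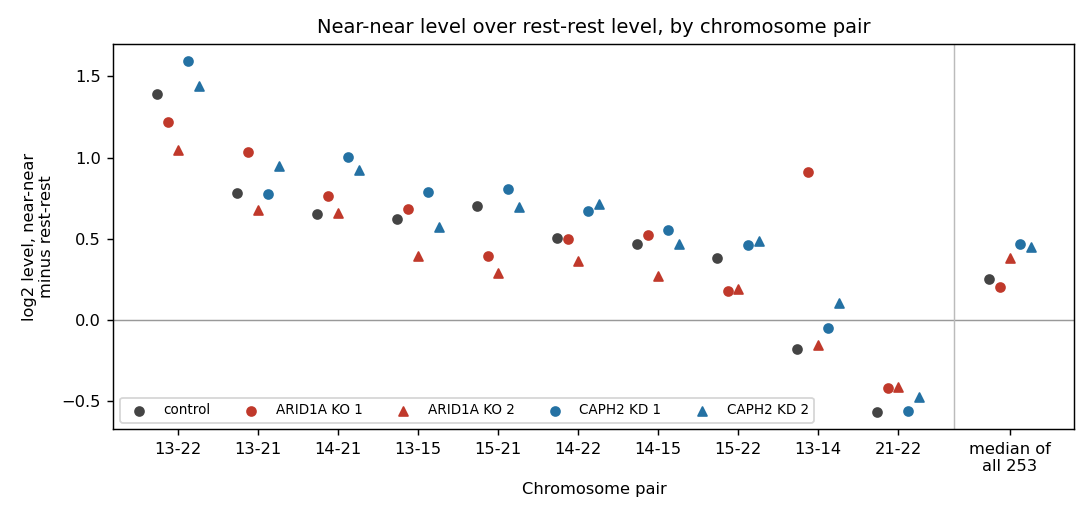
Near-near level minus rest-rest level (log2, vertical axis) for each acrocentric pair, in order of the mean, with the median of all chromosome pairs at the right; points are the 5 libraries. Pairs above the line at 0 have denser contact next to the short arms than between the rest of the long arms; 13-22 lies between 1.05 and 1.59 and 21-22 between -0.57 and -0.41.

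As a set, the near bins did not have acrocentric chromosomes alone as their main partners. Chromosome 21 was first among 23 chromosomes, with a level of -0.70 in the control, -0.76 and -0.90 in ARID1A_KO, and -0.49 in each CAPH2_KD library. Chromosome 20 was next at a mean of -0.75, then 22 at -0.89, then 16, 19, 17 and 12. Chromosomes 15, 14 and 13 were at ranks 8, 9 and 15. Against only the near bins of each partner, chromosomes 20 and 17 led with means of -0.61 and -0.63, and the acrocentrics 13, 14, 22, 21 and 15 followed as ranks 3 to 7, between -0.67 and -0.75. Read within each library, chromosome 20 was above 17, 14, 22, 21 and 15 in every library, and above 13 in all but ARID1A_KO replicate 1. The order of the others changed between libraries and is not resolved. These differences were not tested.

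**Figure D5:**
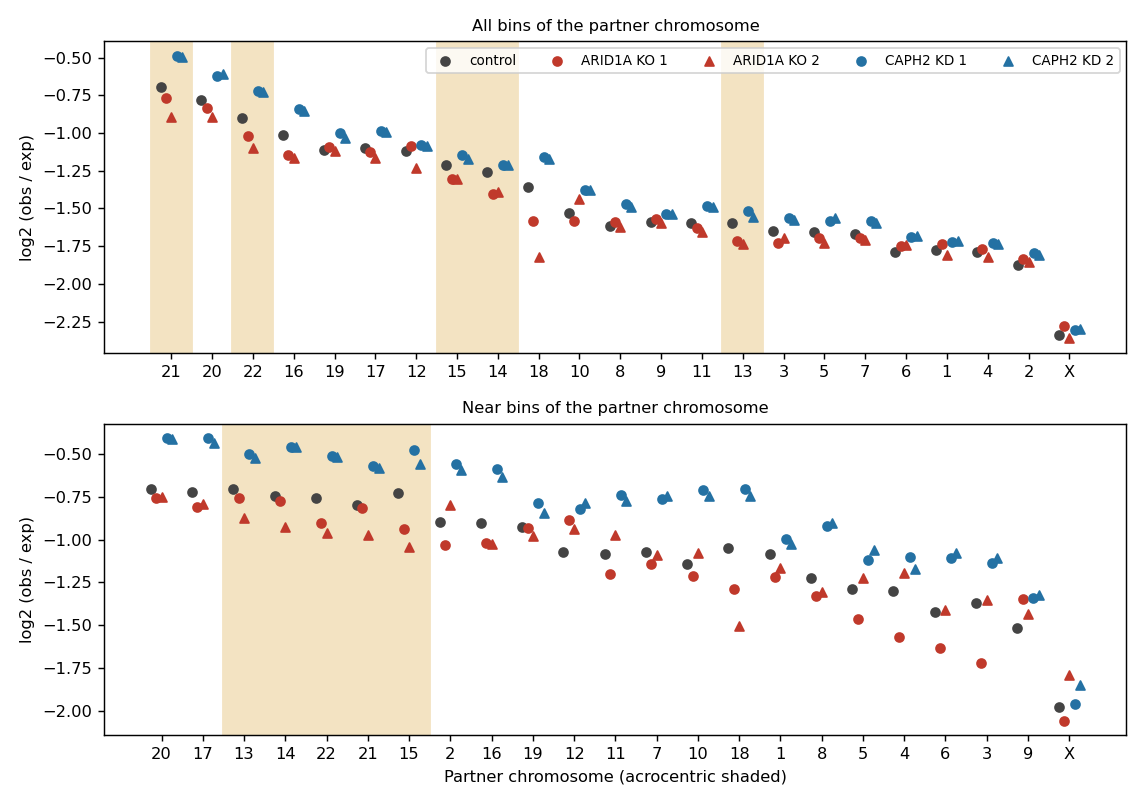
Level (log2 of observed over expected) of the acrocentric near bins with each partner chromosome, over all its bins (upper panel) and over its near bins (lower panel), in order of the mean; acrocentric partners are shaded and points are the 5 libraries. In the lower panel the 5 acrocentric partners sit side by side at ranks 3 to 7, behind chromosomes 20 and 17.

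Bin by bin, most acrocentric bins had a share of acrocentric partners above expectation, in the near and in the rest bins. The measure was the share of a bin's trans signal that went to acrocentric chromosomes other than its own, as log2 over the share expected from totals. Its median over the 47 near bins was 0.32 in the control, 0.25 and 0.24 in ARID1A_KO, and 0.33 and 0.31 in CAPH2_KD. Over the 282 rest bins it was 0.30 in the control, 0.16 and 0.26 in ARID1A_KO, and 0.32 and 0.34 in CAPH2_KD, and with the wide join left out 0.29, 0.16, 0.25, 0.30 and 0.32 in the same order. The rest bins of chromosome 13 had a median of 0.30 in the control and 0.06 in ARID1A_KO replicate 1, the latter below the bins of other chromosomes in that library. The 2443 bins of other chromosomes had 0.12, 0.09, 0.12, 0.11 and 0.11, but the 172 near bins among them had 0.25, 0.20, 0.22, 0.24 and 0.25, close to the acrocentric near bins. The share was above expectation in all 5 libraries for 45 of the 47 acrocentric near bins and 153 of those 172. It was so for 257 of the 282 rest bins and 1540 of the 2443 others.

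The highest bins were those of the join. The bin chr13:110000001-111000000 had 1.13 in the control, 0.07 and 1.11 in ARID1A_KO, and 1.06 and 1.01 in CAPH2_KD. The other bins of the highest 3, chr14:87000001-88000000 and chr14:82000001-83000000, lie in the quadrant with the highest signal and had 1.06 and 1.05 in the control against 0.33 and 0.08 in ARID1A_KO replicate 1. With the wide join left out, the 3 bins had 0.39, 0.80 and 0.71 in the control. The lowest was chr15:90000001-91000000, at 0.03 in the control, -0.12 and -0.07 in ARID1A_KO, and 0.10 and -0.0050 in CAPH2_KD. Next were chr13:44000001-45000000, between -0.07 and 0.05, and chr13:57000001-58000000, between -0.01 and 0.10. The bins chr15:90000001-91000000 and chr13:44000001-45000000 each carry a strong join with a chromosome that is not acrocentric: chr13:44000001-45000000 with chr12:53000001-54000000 was 118-fold over expectation in the control and between 111-fold and 122-fold in the other 4 libraries.

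ARID1A knockout against the control showed small decreases for most acrocentric pairs, which depended on the expectation and mostly were not called. Only 14-15 passed (limma, -0.19 on the log2 scale, SE 0.024, adjusted p = 0.0214), so 1 of 10 acrocentric pairs was lower, beside 5.53% of all pairs, and 0 were higher, as 0% of all pairs were. Both knockout libraries were below the control for 8 of the 10 pairs, as for 61.3% of all pairs. The median difference was -0.08 for the acrocentric pairs and -0.04 for all. The largest difference, -0.52 for 13-14 (SE 0.30, adjusted p = 0.287), was -0.42 with the wide join left out (SE 0.20, adjusted p = 0.227); replicate 1 was -0.89 from the control and replicate 2 -0.16. With 1 knockout library left out, the lone other one was assumed to vary like the rest. Most acrocentric pairs were then called, as were most of all pairs. The median difference was -0.07 for acrocentric pairs and -0.05 for all without replicate 1, and -0.11 and -0.04 without replicate 2. The call of 14-15 was lost with an expectation from trans totals (-0.08, adjusted p = 0.309). On that scale the median difference was -0.01 for the acrocentric pairs and 0.01 for all. The call was also lost with either CAPH2_KD library left out of the fit, at an unchanged difference of -0.19. There 13-14 was called instead (-0.52). That fit gave all pairs 1 common spread, which is not the wide spread between the knockout libraries of 13-14.

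By position, no acrocentric block passed in the knockout (0 of 30, and 0% of all 759 blocks). An unadjusted p under 0.05 was seen for 9 of the 30, beside 99 of all 759. Near-near levels were lower than in the control in both knockout libraries for 6 of 10 acrocentric pairs, against 29.6% of all pairs. The smallest p values were those of 14-15 rest-rest (-0.20, SE 0.037, adjusted p = 0.215), 15-21 near-near (-0.32, SE 0.071, adjusted p = 0.293) and 14-15 near-rest (-0.18, SE 0.042, adjusted p = 0.293). The near-near excess was not called for any acrocentric pair in the knockout (0 of 10, with 1 at an unadjusted p under 0.05, and 0% of all pairs). Median differences in this excess were -0.07 for acrocentric pairs and 0.04 for all. The smallest p values were those of 15-21 (-0.36, SE 0.14), 13-22 (-0.26, SE 0.15) and 15-22 (-0.20, SE 0.13), all at an adjusted p of 0.859 in limma. The median differences in the excess for acrocentric and all pairs were -0.16 and 0.11 without ARID1A_KO replicate 1, and 0.06 and -0.03 without replicate 2. A few acrocentric pairs were then called, as were some of all pairs. Without replicate 2 a small part of the blocks passed, among acrocentric and among all pairs.

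The knockout libraries also recovered contacts unevenly along these chromosomes, which balancing is meant to correct. A bin's yield is its contact total over the library's median. For the near bins of chromosome 21 the median yield was 0.939 in the control, 0.653 and 0.687 in ARID1A_KO, and 0.969 and 0.934 in CAPH2_KD. For the near bins of chromosome 22 it was 0.596 in the control, 0.896 and 0.841 in ARID1A_KO, and 0.556 and 0.581 in CAPH2_KD. The part of these yields in the differences between groups was not tested.

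Single bins did not pass in the knockout either. Of 329 acrocentric bins, 0 were called and 32 had an unadjusted p under 0.05, beside 0% called and 160 of all 2772 bins. The acrocentric share was below the control in both knockout libraries for 214 of the 329 bins, against 43.6% of all bins. The smallest p was that of chr15:24000001-25000000, a near bin, at 0.58 in the control, 0.31 and 0.20 in ARID1A_KO, and 0.46 and 0.47 in CAPH2_KD (-0.33, SE 0.065, adjusted p = 0.735). The next were chr14:32000001-33000000 (-0.23, SE 0.049) and chr13:71000001-72000000 (-0.28, SE 0.063), both at the same adjusted p. Without ARID1A_KO replicate 1 the median difference was -0.04 for acrocentric bins and -0.01 for all, and without replicate 2 it was -0.12 and -0.04. In each of these fits the lone knockout library was assumed to vary like the rest. Acrocentric bins were called more often than all bins in both, by a small margin without replicate 1.

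CAPH2 knockdown against the control gave small higher values across most chromosome pairs, and none was called. All 10 acrocentric pairs were higher in both knockdown libraries than in the control, as were 96% of all pairs. None passed limma (0 of 10 acrocentric pairs and 0% of all), although 6 of the 10 and 123 of all pairs had an unadjusted p under 0.05. The median difference was 0.11 for the acrocentric pairs and 0.09 for all. The smallest adjusted p was 0.0789, shared by 14-15 (0.15, SE 0.024), 14-22 (0.11, SE 0.024) and 15-21 (0.12, SE 0.024). With either ARID1A_KO library left out of the fit, the differences were unchanged, but most acrocentric pairs and most of all pairs were called higher. Trans contacts made up 24.4% and 24.2% of all contacts in CAPH2_KD, 23.1% in the control and 22.4% and 21.8% in ARID1A_KO. With trans totals as the expectation, the knockdown median was 0.02 for the acrocentric pairs and 0.00 for all.

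The knockdown's near-near levels had larger differences from the control than its rest-rest levels, in acrocentrics and in all pairs. All 10 acrocentric near-near levels were higher in both knockdown libraries than in the control, as were 90.5% of all near-near levels. The median difference was 0.21 for acrocentric near-near blocks and 0.26 for all near-near blocks, against 0.12 and 0.08 for rest-rest. None of the 30 acrocentric blocks passed (0% of all 759, with 9 of the 30 at an unadjusted p under 0.05, beside 165 of all 759). The smallest p values belonged to 14-21 near-near (0.36, SE 0.068, adjusted p = 0.186), 14-15 rest-rest (0.18, SE 0.037, adjusted p = 0.204) and 14-22 near-near (0.33, SE 0.068, adjusted p = 0.204). The near-near excess was not called for any acrocentric pair (0 of 10, also 0 at an unadjusted p under 0.05, and 0% of all pairs), with 14-21 the largest at 0.31 (SE 0.14, adjusted p = 0.479), followed by 14-22 (0.19, SE 0.14, adjusted p = 0.575) and 13-22 (0.13, SE 0.15, adjusted p = 0.721). With either ARID1A_KO library left out of the fit, the differences were unchanged. The spread then came from the CAPH2_KD libraries alone. A minority of acrocentric blocks and near-near excesses was called, as was a minority of all.

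No acrocentric bin's share passed in the knockdown (0 of 329, and 0% of all bins). An unadjusted p under 0.05 was seen for 12 of the 329, beside 66 of all 2772. Both knockdown libraries were above the control for 138 of the 329 bins and below it for 99, against 37% and 37.8% of all bins. The smallest p was that of chr22:30000001-31000000, at -0.00096 in the control, 0.04 and 0.06 in ARID1A_KO, and 0.19 in each CAPH2_KD library (0.19, SE 0.048, adjusted p = 0.997). The next, chr21:45000001-46000000 and chr14:68000001-69000000, differed by 0.18 and 0.15 with the same adjusted p.

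The knockout and the knockdown, set against each other, differed for most acrocentric pairs, as they did for most chromosome pairs. Levels were lower in ARID1A_KO than in CAPH2_KD for 7 of 10 acrocentric pairs by limma, beside 70.8% of all pairs. None of the 10 was higher, beside 1.58% of all pairs, and 72.3% of all pairs were called in either direction. The 7 were 14-15 (-0.34, SE 0.019, adjusted p = 0.000993), 13-15 (-0.26, adjusted p = 0.00264), 14-22 (-0.18, adjusted p = 0.00337), 14-21 (-0.16, adjusted p = 0.00389), 15-21 (-0.12, adjusted p = 0.00612), 15-22 (-0.21, adjusted p = 0.00754) and 21-22 (-0.38, adjusted p = 0.0183). The knockout and knockdown libraries did not overlap for 9 pairs, against 84.2% of all pairs that were lower without overlap; the exception was 13-22. The median difference was -0.20 for the acrocentric pairs and -0.13 for all. With the median shift of each library taken out, 2 of the 10 were called, beside 64 of all pairs, and with trans totals 0 were, beside 24. Leaving out either CAPH2_KD library cut the calls, less so among acrocentric than among all pairs. Leaving out either ARID1A_KO library called nearly all pairs of both kinds. The median difference for acrocentric and all pairs was -0.20 and -0.13 without CAPH2_KD replicate 1, and -0.19 and -0.13 without replicate 2. It was -0.17 and -0.14 without ARID1A_KO replicate 1, and -0.22 and -0.12 without replicate 2.

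Lower values in the knockout than in the knockdown were called in all 3 position classes. None was called with each library's median shift taken out or with trans totals (0 of 30 and 0 of 759 in both). With a replicate block 10 of 30 were, beside 142 of all 759. Of the 30 acrocentric blocks, 18 were lower in ARID1A_KO, beside 33.9% of all 759 blocks, and 0 were higher, beside 0.132%; 34% of all blocks were called in either direction. By class, 6 of 10 near-near, 8 of 10 near-rest and 4 of 10 rest-rest blocks were lower, beside 31.2%, 31.2% and 39.1% of all blocks of each class. None of the near-near blocks was higher, beside 0.395% of all near-near blocks. The lowest p was that of 14-15 rest-rest (-0.38, SE 0.030, adjusted p = 0.0184). Next came near-near blocks: 15-22 (-0.50, SE 0.051, adjusted p = 0.0192), 15-21 (-0.49, SE 0.058, adjusted p = 0.0256), 14-22 (-0.44, SE 0.055, adjusted p = 0.0276) and 13-22 (-0.41, SE 0.058, adjusted p = 0.0317). The remaining 5 of the first 10 by p were 14-21 near-rest (-0.22), 13-15 rest-rest (-0.27), 14-21 near-near (-0.37), 14-22 rest-rest (-0.18) and 15-21 near-rest (-0.16). With either CAPH2_KD library left out, no block passed, among acrocentric or among all pairs. Defining near by the first 5 bins left 3 called, beside 25 of all 759, and 15-22 near-near then turned to 0.12 (adjusted p = 0.199).

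The near-near excess itself was not called different between the knockout and the knockdown for any acrocentric pair (0 of 10, with 3 at an unadjusted p under 0.05, and 0% of all pairs). The 3 were 15-21 (-0.41, SE 0.11, adjusted p = 0.307), 13-22 (-0.38, SE 0.12, adjusted p = 0.311) and 15-22 (-0.29, SE 0.10, adjusted p = 0.323). The median difference was -0.29 for acrocentric pairs and -0.07 for all without ARID1A_KO replicate 1, and -0.09 and -0.23 without replicate 2. Acrocentric pairs were called more often than all pairs without replicate 1, and less often without replicate 2. Single bins gave 0 calls of 329 (97 at an unadjusted p under 0.05, beside 350 of all 2772 bins, and 0% of all bins called). Their shares were lower in ARID1A_KO without overlap for 206 of the 329, against 32% of all bins. The smallest p belonged to chr14:32000001-33000000 (-0.26, SE 0.040, adjusted p = 0.315), followed by chr14:63000001-64000000 (-0.23, SE 0.042) and chr21:39000001-40000000 (-0.20, SE 0.039), both at an adjusted p of 0.357. With 1 ARID1A_KO library left out, the lone other one was assumed to vary like the rest. Acrocentric bins were then called more often than all bins. The median difference was -0.06 for acrocentric bins and -0.0052 for all without replicate 1, and -0.14 and -0.04 without replicate 2. Both comparisons with the control share its single library, so their values stand side by side here and were not set against each other.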

How the data were processed

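Per the submitters' processing notes, reads were aligned with Bowtie2 to hg19. The authors deposited, for each of 5 libraries, a matrix of balanced contact signal between 1 Mb bins, in which nearly all bins of a library share 1 row sum. The balancing method is not given in the sources used here. Signal was compared only within a library, as log2 of observed over expected. Each bin's balancing factor was recovered from the values, which gave whole contacts, within 0.05, for 98.1% to 99.1% of values; these were used for depth and as an alternative. Of 2811 bins measured in all libraries, 39 whose control total was under 0.25 of the median were left out; among them were the first measured bins of chromosomes 13, 15 and 21, so 47 of 50 near bins were used.

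Values of 253 chromosome pairs, 759 position blocks, 253 near-near minus rest-rest differences and 2772 bin shares were tested with limma 3.58.1 in R 4.3.3 (lmFit, eBayes, 3 groups in 1 fit, Benjamini-Hochberg adjustment). The control has 1 library, so its spread is that of the other groups. The fit was tested on simulated data. Compartments came from the control's leading eigenvector per chromosome, signed so that it rises with a bin's share of trans contacts. Alternatives were recovered contacts, trans totals, each library's median shift taken out, a replicate block, other definitions of near, no filter on bins, strong bin pairs left out and each library left out. A cluster of strong joins linked bin pairs within 5 Mb on both sides. Replicates differed by more than sampling noise. Named were all 10 pairs, the blocks, differences and bins that passed (at most 10 by p, otherwise 3), and the highest and lowest bins and bin pairs. Members and lists were chosen with earlier results of these data known.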

Additional observations from a re-analysis of the deposited data

How the results depend on the processing

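Counts here are of acrocentric features called at an adjusted p under 0.05, with the count over all features in parentheses. For chromosome pairs, the knockout against the control went from 1 (14) to 3 (41) with recovered contacts and to 0 (1) with trans totals. The knockdown against the control went from 0 (0) to 4 (119) with recovered contacts. The knockout against the knockdown went from 7 (183) to 2 (64) with the shift of each library taken out and to 0 (24) with trans totals. For position blocks, the knockout against the knockdown went from 18 (258) to 3 (25) with the first 5 bins as near. It went to 0 (0) with the shift taken out or with trans totals. With 1 library left out, pairs ranged from 1 to 9 for the knockout against the control (the 1 being 13-14, not 14-15, without either CAPH2_KD library), 0 to 9 for the knockdown against the control and 4 to 10 for the knockout against the knockdown; blocks ranged from 0 to 1, 0 to 6 and 0 to 24; near minus rest from 0 to 2, 0 to 1 and 0 to 6; bin shares from 0 to 122 and, against the knockdown, 0 to 190.

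The replicate numbers do not pair the libraries (correlations of deviations between -0.06 and 0.06 over the 4 kinds of value). A replicate block moved the pairs called for the knockout against the control to 2 (25). It moved the blocks called for the knockout against the knockdown to 10 (143).

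The near-near minus rest-rest level, a mean of 0.47 over libraries, was 0.76 with recovered contacts, 0.83 with the first 5 bins and 0.17 with the first 20. The compartment-matched near-near level of 1.02 was 1.21 with recovered contacts, 0.59 with trans totals, 1.23 with no filter on bins, 1.27 with the first 5 bins, 0.82 with the first 20 and 0.88 with bins 3 to 12. Acrocentric partners of the near bins exceeded other partners by 0.35, and by 0.32 with recovered contacts, 0.15 with trans totals, 0.41 with no filter, 0.36 with the first 5 bins, 0.32 with the first 20 and 0.33 with bins 3 to 12. With the shift taken out, 15-21 in the knockout against the knockdown turned to 0.0051, and with the first 5 bins 15-22 near-near turned to 0.12. The causes were not tested. Leaving out the wide join was chosen after seeing the data. Near-near blocks have few contacts, which limits what they can show.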
